A study of Mus musculus with 13 samples.

Results

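The genes described here are 10 genes of mouse hepatocytes around the central vein, or of the Wnt pathway that acts there, namely Glul, Oat, Slc1a2, Rhbg, Lgr5, Znrf3, Rnf43, Axin2, Tbx3 and Lect2. They were chosen by name for that role, but with earlier results of these data known. They are 10 of the 23785 Entrez genes in the deposited count tables. All 10 passed the filter on low counts in each of the 3 comparisons.

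A liver lobule runs from the portal vein and bile duct to the central vein, and hepatocytes differ along that line. Endothelial cells of the central vein secrete Wnt ligands and R-spondins, which stabilise β-catenin in the neighbouring hepatocytes and so keep the pericentral genes on. The best known product of that zone is glutamine synthetase, which binds the ammonia that periportal hepatocytes have not turned into urea.

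Livers came from male C57 mice of 3 months. The 5 mice of the no BDL group were untreated, 4 mice (miR-Ctrl BDL) had bile duct ligation (BDL), a surgical block of bile flow, and a control oligonucleotide, and 4 mice (anti-miR-873-5p BDL) had BDL and an oligonucleotide against the microRNA miR-873-5p. The oligonucleotides were injected at 60 µg per mouse on days 3 and 5 after surgery and livers were taken on day 7. Each mouse gave 1 RNA-seq library of whole liver, in which hepatocyte zones are not separated, so fewer pericentral cells and less RNA per cell cannot be told apart in any value below. The labels name no injection for the no BDL mice, so surgery and injection cannot be told apart against that group.

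The libraries held 12185333 to 19689037 counted reads each. Per-mouse values are normalized counts, that is edgeR's cpm of all 13 libraries, scaled together with the TMM method, while log2 fold changes come from the fit of each deposited table. The no BDL libraries had TMM factors of 0.621 to 0.863 and the BDL libraries of 1.07 to 1.45, so the choice of scaling bears on every comparison with no BDL. Without TMM, on total counts alone, the median over all genes moved on the log2 scale from -0.011 to 0.79 for miR-Ctrl BDL and from -0.0070 to 0.82 for anti-miR-873-5p BDL, both set against no BDL. Hepatocyte markers were abundant in all groups, with summed levels of 8 markers of 106000 to 119000 in no BDL, 73200 to 108000 under miR-Ctrl and 65500 to 112000 under anti-miR-873-5p. Alb and Trf dominate these sums and moved in opposite directions. Alb had means of 77100, 43600 and 43200 in the 3 groups in that order, and Trf of 16600, 38500 and 29700. The sums therefore do not show that single hepatocyte genes were stable. The table of the 2 BDL groups leaves out mouse 3 of miR-Ctrl BDL and mouse 2 of anti-miR-873-5p BDL. The authors removed outliers and did not name them.

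Per kilobase of exon, Oat and Glul were the most abundant of the 10 genes in no BDL liver, with mean levels of 302 ± 51.9 and 291 ± 30.0 (SD, n = 5) normalized counts per kb. These levels lay within 1 SD of each other. Lect2 followed at 97.9 ± 15.4, and then a step down led to Slc1a2 at 10.1 ± 1.64. Rhbg (5.69 ± 0.619), Tbx3 (4.62 ± 1.77) and Rnf43 (3.87 ± 1.197) formed a group in which the ranges of mean ± SD of neighbours overlapped. The Wnt feedback genes had the lowest levels, 1.44 ± 0.384 for Axin2, 1.04 ± 0.158 for Znrf3 and 0.572 ± 0.230 for Lgr5. The ranges of mean ± SD of Axin2 and Znrf3 overlapped, and that of Lgr5 lay below both. In reads, Lgr5 had 30 to 108 and Rhbg 6 to 204 per mouse, against 893 to 14390 for Glul, so the low genes carry more counting error.

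The microRNA that the oligonucleotide targets is shown with its seed, bases 2 to 8, in capitals, because a gene that it binds directly would carry the matching letters in its 3′ untranslated region. The RefSeq entry lies on the minus strand at chr4:36668556-36668576 of GRCm38.p6.
mmu-miR-873a-5p: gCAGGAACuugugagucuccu
The matching 7 bases, GTTCCTG, occur in the 3′ untranslated regions of 2 of the 10 genes, against 17.2% of 21166 genes with such a region in GENCODE M21. They are shown in capitals within the surrounding bases.
Slc1a2: actttgtaGTTCCTGtaac
Znrf3: tgtgtcttGTTCCTGcagc
A match of letters is a description and not evidence of binding.

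The β-catenin partners TCF and LEF bind DNA at sites of the type CTTTGAT, or ATCAAAG on the other strand. RefSeq promoter windows of 250 bases before the start were at hand for 6 of the 10 genes (Glul, Oat, Slc1a2, Lect2, Axin2 and Rnf43, the last with 2 windows). The motif on either strand occurred in 2 of these 7 windows, those of Slc1a2 and Lect2, and in 3.21% of all 32851 windows. Both are given on the gene's strand with the motif in capitals, because they are the windows of these genes that hold the motif. Glul, Oat and Rnf43, which had no match in their windows, are also among the genes called lower with miR-Ctrl. Any bearing of the motif on these calls was not tested. The Slc1a2 window is chr2:102706188-102706437, plus strand, with the motif starting 207 bases before the start, which is an internal start within the gene, and the Lect2 window is chr13:56548539-56548788, minus strand, with the motif starting 32 bases before it, both in GRCm38.p6. The 5 windows of the other 4 genes held no match of these letters, which says nothing of sites further away.
Slc1a2: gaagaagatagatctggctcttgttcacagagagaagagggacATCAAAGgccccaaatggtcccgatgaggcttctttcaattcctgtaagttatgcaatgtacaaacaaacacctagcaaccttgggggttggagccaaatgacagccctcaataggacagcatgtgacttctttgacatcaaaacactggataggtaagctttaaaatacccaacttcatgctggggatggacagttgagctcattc
Lect2: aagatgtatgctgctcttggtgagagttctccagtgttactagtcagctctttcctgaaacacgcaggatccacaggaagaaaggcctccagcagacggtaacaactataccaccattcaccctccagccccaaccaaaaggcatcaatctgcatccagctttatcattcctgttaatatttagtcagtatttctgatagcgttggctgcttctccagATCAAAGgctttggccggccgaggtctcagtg

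**Figure D1:**
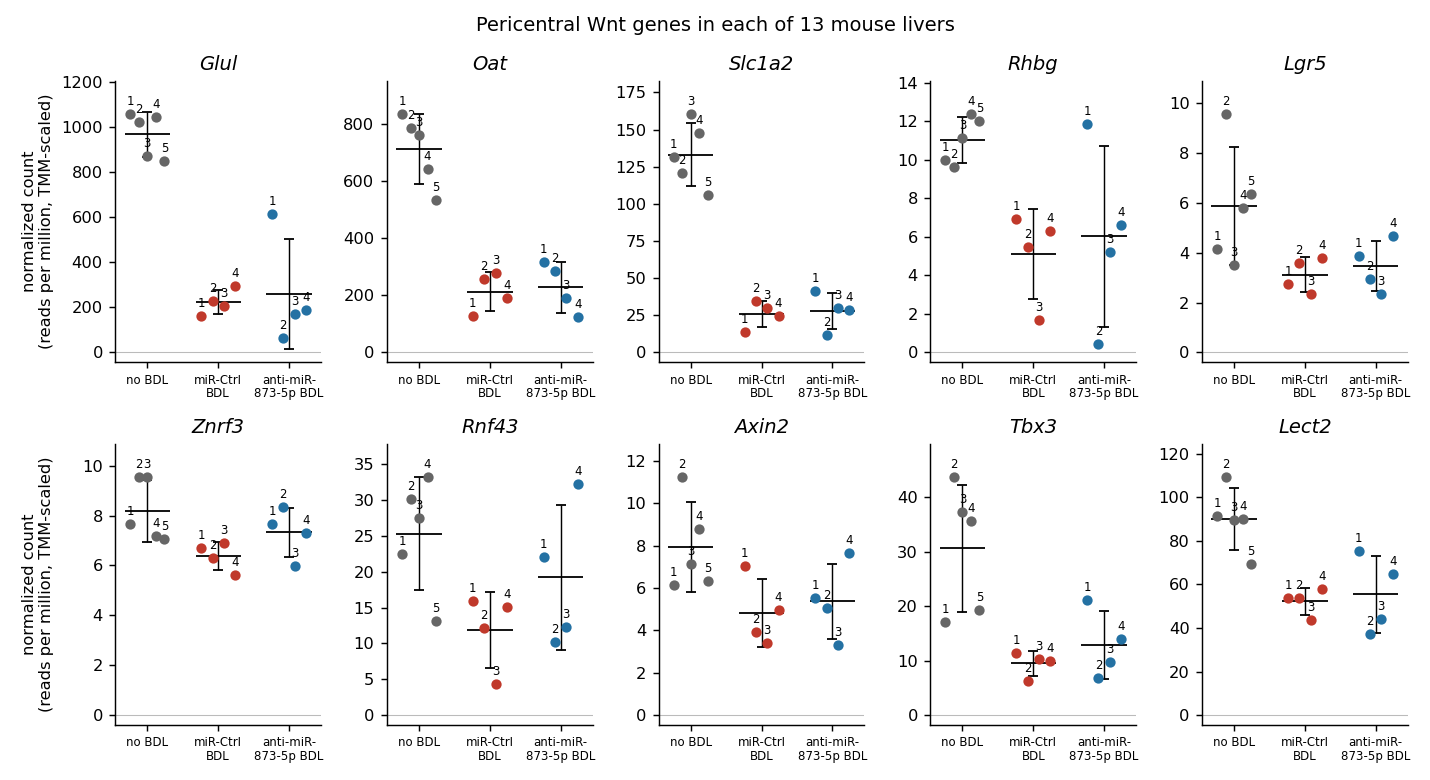
Normalized count (TMM-scaled cpm, linear axis) of each of the 10 genes in each mouse, with the mouse number beside its point, the mean as a horizontal line and the SD as a bar, for 5 no BDL, 4 miR-Ctrl BDL and 4 anti-miR-873-5p BDL mice. Glul, Oat and Slc1a2 of every BDL mouse lie below every no BDL mouse, while Axin2, Lgr5 and Rnf43 overlap between groups.

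The first comparison, of miR-Ctrl BDL with no BDL, asked how these genes differed with ligation and control injection together. Slc1a2, Glul, Oat and Tbx3 had the lowest log2 fold changes of the 10, with Slc1a2 reduced 5.10-fold and Glul 4.32-fold. Of the Wnt feedback genes Rnf43 and Lgr5 were just past the threshold, and Axin2 and Znrf3 did not pass the test. In all, 8 of the 10 genes were called lower and none higher, at an adjusted p of 0.05 in edgeR's quasi-likelihood test (p-values adjusted after Benjamini and Hochberg), where 16.6% of all 13072 genes tested were called lower and 19.1% higher. The median log2 fold change of the 10 genes was -1.07, against -0.011 over all genes tested. For 7 of the 10, among them Znrf3, which was not called, every miR-Ctrl BDL mouse was below every no BDL mouse, as for 14.8% of all genes.

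Glul (Entrez gene 14645, chr1:153899929-153909723 of GRCm38), glutamine synthetase, had 1055, 1019, 871, 1044 and 848 normalized counts in no BDL mice 1 to 5 and 162, 229, 207 and 294 in miR-Ctrl BDL mice 1 to 4. The highest miR-Ctrl BDL mouse was far below the lowest no BDL mouse. In the fit Glul changed by -2.11 on the log2 scale (SE 0.19, adjusted p = 0.000121), and 1.06% of all genes tested had a lower one. The call held in all 9 fits that left out 1 mouse. Of the 50-base windows of Glul, 12.6% also occur in other genes, with the most matches in the pseudogene Glns-ps1. The counts of Glul were 4.12% to 5.80% higher in this table than in the others for the same mice. With the counts of the others, on miR-Ctrl mice 1, 2 and 4, its change was -2.07 (adjusted p = 0.000152).

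Slc1a2 (Entrez gene 20511, chr2:102658239-102790784), a glutamate transporter known from glia and found on pericentral hepatocytes, had 132, 121, 160, 148 and 106 normalized counts in no BDL and 13.9, 34.6, 29.9 and 24.6 in miR-Ctrl BDL. No miR-Ctrl BDL mouse came near the no BDL range. The log2 fold change of -2.35 (SE 0.25, adjusted p = 0.000225) was the lowest of the 10 genes.

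Oat (Entrez gene 18242, chr7:132557475-132576398), ornithine aminotransferase, which passes ornithine carbon on towards glutamate, had 835, 788, 761, 642 and 534 normalized counts in no BDL and 128, 257, 278 and 189 in miR-Ctrl BDL. Again the groups did not overlap. Oat changed by -1.72 on the log2 scale (SE 0.24, adjusted p = 0.000769), a 3.30-fold fall.

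Rhbg (Entrez gene 58176, chr3:88242874-88254739), an ammonia transporter of the Rhesus family, had 9.99, 9.64, 11.1, 12.4 and 12.02 normalized counts in no BDL and 6.93, 5.48, 1.70 and 6.29 in miR-Ctrl BDL. It fell by 1.07 on the log2 scale (SE 0.32, adjusted p = 0.0268). The call was lost without no BDL mouse 4 or miR-Ctrl mouse 2, with log2 fold changes of -1.26 to -0.80 and an adjusted p of up to 0.0573 over the fits that left out 1 mouse. As many as 60.4% of its 50-base windows also occur in other genes, with the most matches in the overlapping gene model Gm38392. The value may therefore hold reads of those genes.

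Tbx3 (Entrez gene 21386, chr5:119670534-119684724), a T-box transcription factor, had 17.1, 43.8, 37.3, 35.6 and 19.4 normalized counts in no BDL and 11.3, 6.25, 10.4 and 10.02 in miR-Ctrl BDL. The no BDL mice differed 2.56-fold among themselves, yet the lowest of them was above all miR-Ctrl BDL mice. Its log2 fold change of -1.67 (SE 0.31, adjusted p = 0.00295) stayed past the threshold in all 9 fits without 1 mouse. An antisense gene, Tbx3os1, overlaps it, and the library kit does not mark strand.

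Lect2 (Entrez gene 16841, chr13:56529734-56548559), a protein that hepatocytes secrete into blood, had 91.5, 109, 89.5, 90.0 and 69.3 normalized counts in no BDL and 53.8, 53.6, 43.6 and 58.0 in miR-Ctrl BDL. The groups did not overlap, and the fall was 1.69-fold, a log2 fold change of -0.76 (SE 0.14, adjusted p = 0.00327).

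Lgr5 (Entrez gene 14160, chr10:115450314-115587780), the R-spondin receptor of pericentral hepatocytes, had 4.16, 9.55, 3.50, 5.79 and 6.34 normalized counts in no BDL and 2.74, 3.60, 2.32 and 3.79 in miR-Ctrl BDL. The highest miR-Ctrl BDL mice reached into the no BDL range. It fell by 0.88 on the log2 scale (SE 0.30, adjusted p = 0.0448), just past the threshold, and the call was lost without no BDL mouse 2, 4 or 5 or any miR-Ctrl mouse, with log2 fold changes of -1.03 to -0.64 and an adjusted p of up to 0.103.

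Rnf43 (Entrez gene 207742, chr11:87663087-87735539), a membrane ubiquitin ligase that removes Wnt receptors, had 22.5, 30.2, 27.6, 33.2 and 13.2 normalized counts in no BDL and 15.9, 12.2, 4.33 and 15.1 in miR-Ctrl BDL. No BDL mouse 5 was inside the miR-Ctrl BDL range. Rnf43 fell by 1.06 on the log2 scale (SE 0.37, adjusted p = 0.0487), and the call was lost without no BDL mouse 1, 2, 3 or 4 or miR-Ctrl mouse 1, 2 or 4, with an adjusted p of up to 0.105.

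The related ligase Znrf3 (Entrez gene 407821, chr11:5276329-5444847) had 7.67, 9.55, 9.53, 7.17 and 7.08 normalized counts in no BDL and 6.71, 6.31, 6.89 and 5.62 in miR-Ctrl BDL. The groups came close without overlapping, but the log2 fold change was small, -0.34 (SE 0.15, adjusted p = 0.0945). Axin2 (Entrez gene 12006, chr11:108917828-108950783), the scaffold of the β-catenin destruction complex that Wnt signalling itself induces, had 6.16, 11.2, 7.15, 8.77 and 6.34 normalized counts in no BDL and 7.04, 3.93, 3.41 and 4.95 in miR-Ctrl BDL. Axin2, at -0.68 on the log2 scale (SE 0.26, adjusted p = 0.0660), did not pass the test, and without miR-Ctrl mouse 1, the highest of its group, it was -0.93 (adjusted p = 0.0226).

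The count of 8 fell to 5 without no BDL mouse 4 or miR-Ctrl mouse 2, and to 4 under total-count scaling, which left Glul, Oat, Slc1a2 and Tbx3 called lower. Under that scaling 275 genes were called lower and 9360 higher, against 2175 and 2491 with TMM, and Axin2, Lect2 and Znrf3 took positive log2 fold changes of 0.15, 0.057 and 0.46. In each of the 4 scalings tried all 10 genes stayed below the median of all genes, as the plot of log2 fold change by scaling shows. A change of scaling moves all genes by nearly the same amount, so the 4 scalings are not separate tests of this position.

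**Figure D2:**
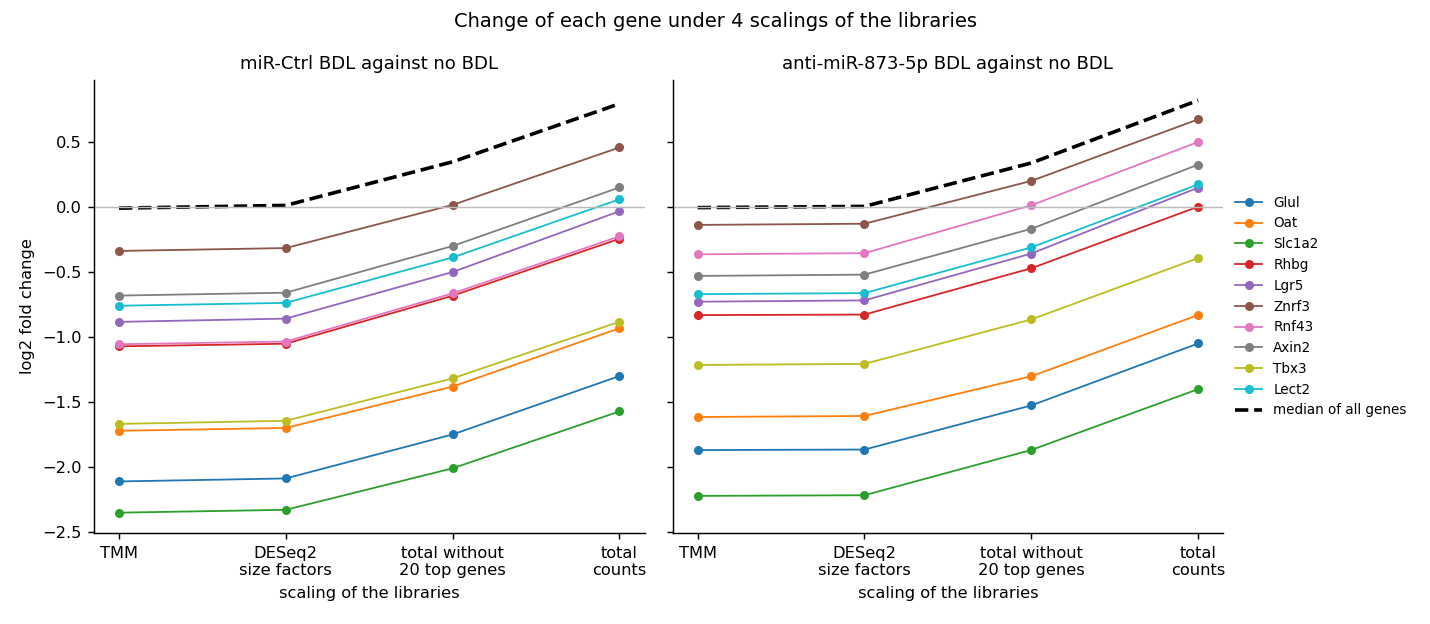
Log2 fold change (linear axis) of each of the 10 genes, 1 line each, and the median of all genes tested (dashed) under 4 scalings of the libraries, for miR-Ctrl BDL (left) and anti-miR-873-5p BDL (right), each set against no BDL. The median of all genes rises from about 0 with TMM to 0.79 and 0.82 with total counts, and all 10 genes lie below it throughout. A change of scaling moves all genes by nearly the same amount.

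The second comparison set anti-miR-873-5p BDL against the same no BDL mice, so its values are not independent of the first. The 4 genes with the lowest log2 fold changes were again Slc1a2, Glul, Oat and Tbx3, and these 4 were called lower, against 8.44% of all 13130 genes tested, and no gene of the 10 was called higher, against 13.1%. For 3 of them (Glul, Oat and Slc1a2) every anti-miR-873-5p BDL mouse was below every no BDL mouse, as for 8.23% of all genes. All 10 log2 fold changes were negative, with a median of -0.78.

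Slc1a2 had 41.5, 11.6, 30.1 and 28.5 normalized counts in mice 1 to 4 of anti-miR-873-5p BDL, a log2 fold change of -2.22 (SE 0.32, adjusted p = 0.00251). Oat had 316, 287, 190 and 123, a log2 fold change of -1.62 (SE 0.28, adjusted p = 0.00516). Both calls held without each mouse in turn and under every scaling tried.

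Glul had 613, 62.7, 172 and 190 normalized counts in mice 1 to 4 of anti-miR-873-5p BDL. These 4 mice differed 9.77-fold, against 1.82-fold in miR-Ctrl BDL, with mouse 1 closest to the no BDL range and mouse 2 the lowest of all 13. The log2 fold change was -1.87 (SE 0.54, adjusted p = 0.0350). Without mouse 1 it was -2.75 and without mouse 2 -1.56. The call was lost without no BDL mouse 1, 2, 3 or 4 or anti-miR-873-5p mouse 3 or 4, with an adjusted p of up to 0.103, and under total-count scaling, where the log2 fold change was -1.05.

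Tbx3 had 21.2, 6.74, 9.74 and 14.0 normalized counts, and mouse 1 was inside the no BDL range. Its log2 fold change of -1.22 (SE 0.38, adjusted p = 0.0451) ran from -1.56 to -1.02 when 1 mouse was left out, and the call was lost without no BDL mouse 2, 3 or 4 or anti-miR-873-5p mouse 2, 3 or 4, with an adjusted p of up to 0.123. Under total-count scaling it was -0.40 and not called.

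Lect2 had 75.2, 37.4, 44.1 and 64.8 normalized counts and missed the threshold, with a log2 fold change of -0.67 (SE 0.22, adjusted p = 0.0537). It passed without no BDL mouse 5 (-0.75) or anti-miR-873-5p mouse 1 (-0.86), with an adjusted p down to 0.0191. Rhbg had 11.8, 0.42, 5.21 and 6.62 normalized counts, that is from within the no BDL range to almost nothing. Its highest value was 28.1 times its lowest, the widest such ratio of the 10 genes, while by coefficient of variation Glul was wider, at 93.4% against 78.0% for Rhbg. Its log2 fold change of -0.83 had an SE of 0.57 (adjusted p = 0.326).

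The Wnt feedback genes were not called. Rnf43 had 22.1, 10.3, 12.3 and 32.3 normalized counts, so mice 1 and 4 were within the no BDL range and mice 2 and 3 below it (log2 fold change -0.37, SE 0.36, adjusted p = 0.504). Lgr5 had 3.88, 2.95, 2.35 and 4.66 (-0.73, SE 0.32, adjusted p = 0.127) and Axin2 5.51, 5.06, 3.30 and 7.63 (-0.53, SE 0.26, adjusted p = 0.177). Znrf3, with 7.65, 8.36, 5.99 and 7.31, differed least (-0.14, SE 0.15, adjusted p = 0.548). Under total-count scaling 6 of the 10 genes turned positive and Znrf3 was called higher, at 0.67, where the split of all genes called went from 1108 lower and 1715 higher to 131 and 10063. The count of 4 genes fell to 2 under that scaling and without no BDL mouse 2, 3 or 4 or anti-miR-873-5p mouse 3 or 4.

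**Figure D3:**
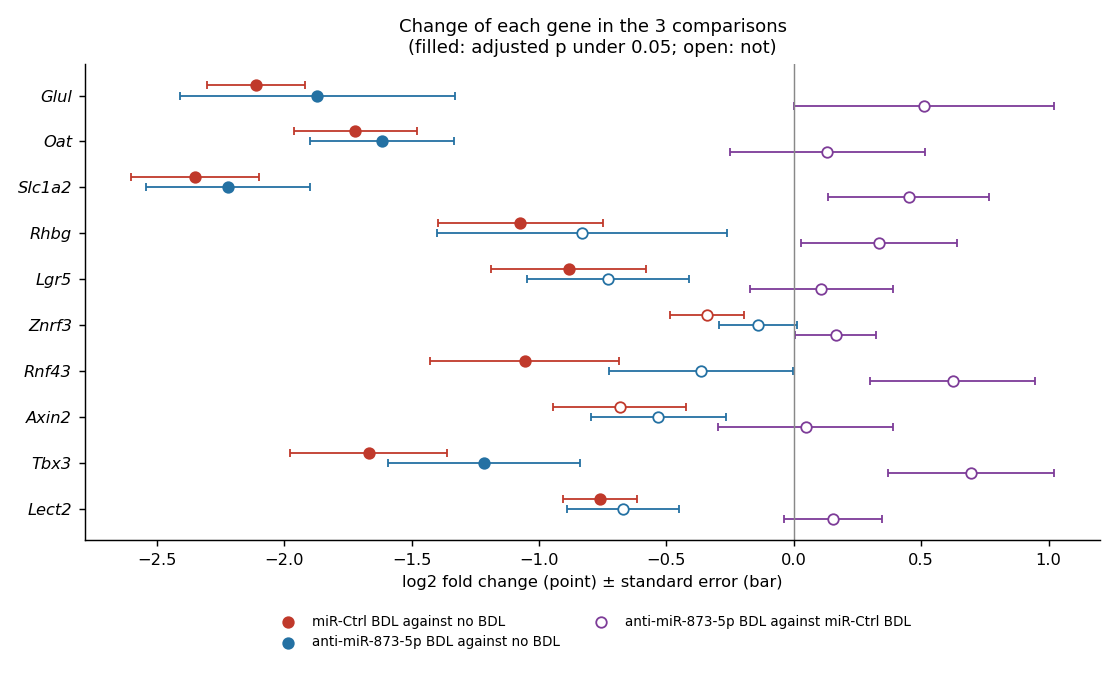
Log2 fold change (point) and standard error (bar) of each of the 10 genes in the 3 comparisons, with filled points for an adjusted p under 0.05. All points of both comparisons with no BDL lie left of 0, 8 and 4 of them filled, and all 10 open points of the comparison between the BDL groups lie right of it.

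The third comparison, of the 2 BDL groups on 3 mice each, asked whether blocking miR-873-5p changed these genes in ligated livers. None of the 10 passed the test in edgeR, where 0.0% of all 13746 genes did, and none had an unadjusted p under 0.05, where 863 genes (6.28%) did. DESeq2's Wald test called 29 genes, none of these 10. The groups overlapped for all 10 genes, while they did not for 4.77% of all genes in the lower and 6.59% in the higher direction.

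All 10 log2 fold changes were positive, from 0.046 for Axin2 to 0.70 for Tbx3 (SE 0.33, adjusted p = 0.781). Rnf43 followed with 0.62 (SE 0.32, adjusted p = 0.783), Glul with 0.51 (SE 0.51, adjusted p = 0.872) and Slc1a2 with 0.45 (SE 0.32, adjusted p = 0.831). Of the genes with a seed match, Slc1a2 ranged from 0.17 to 0.79 when 1 mouse was left out and had 0.12 (adjusted p = 0.993) with all 4 mice of each group, and Znrf3 had 0.16 (SE 0.16, adjusted p = 0.870). The common sign did not hold for all 10 genes when 1 mouse was left out. With mouse 1 of anti-miR-873-5p BDL left out, Glul had a log2 fold change of -0.35, Oat of -0.30, Rhbg of -0.082 and Lect2 of -0.025. The other 6 genes stayed positive without it, Tbx3 at 0.36 and Rnf43 at 0.62. Without mouse 4 of that group Axin2 had -0.27 and Lgr5 -0.12. Without mouse 1 of miR-Ctrl BDL Oat had -0.087 and Lgr5 -0.019, and without mouse 2 or mouse 4 of that group Axin2 had -0.13 or -0.0080. With all 4 mice of each group none of the 10 was called either.

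Relative to the no BDL median, the 8 BDL mice differed in which genes were retained. Anti-miR-873-5p mouse 1 was the highest of the 8 for 6 genes (Glul, Oat, Slc1a2, Rhbg, Tbx3 and Lect2), and its levels ran from 31.5% to 106% of the no BDL median. Anti-miR-873-5p mouse 2, which the table of the 2 BDL groups leaves out, was the lowest for 4 genes (Glul, Slc1a2, Rhbg and Lect2), down to 3.80% for Rhbg, and the highest for Znrf3, at 109%. Anti-miR-873-5p mouse 4 was the highest for Lgr5, Rnf43 and Axin2 and the lowest for Oat. In miR-Ctrl BDL the medians over the 10 genes were 52.6%, 46.7%, 32.8% and 55.8% for mice 1 to 4, against 72.0%, 37.4%, 42.6% and 65.8% in anti-miR-873-5p BDL. The lowest of the miR-Ctrl BDL medians belonged to mouse 3, the other mouse left out of that table. The group ranges of these medians overlapped.

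**Figure D4:**
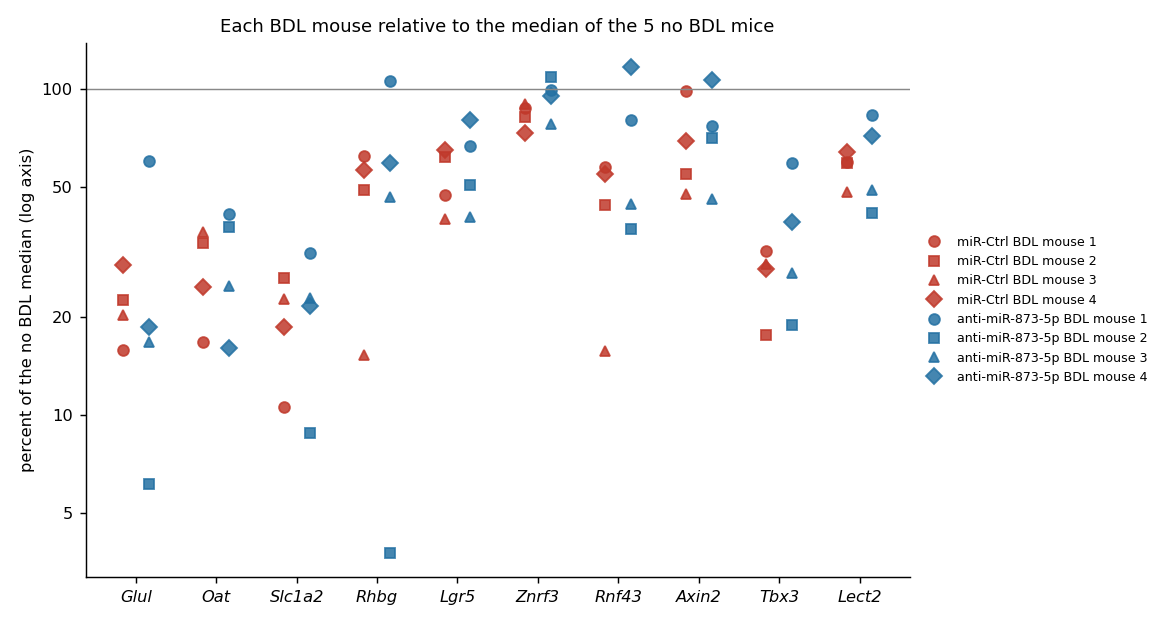
Level of each of the 10 genes in each BDL mouse as a percent of the median of the 5 no BDL mice (log axis), with 1 symbol per mouse number and 1 colour per group. Anti-miR-873-5p mice 1 and 2 mark both ends for Glul, Slc1a2, Rhbg and Lect2, and the line marks 100%.

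Across the 13 mice Glul moved closest with Slc1a2 (Pearson r = 0.94) and Lect2 (r = 0.92), and these values were 0.79 and 0.78 after the group means were subtracted. Axin2 moved with Rnf43 (r = 0.81, and 0.74 without group means) and Lgr5 (r = 0.79 and 0.63). After the group means were subtracted Oat had r = -0.44 with Axin2, -0.40 with Rnf43 and -0.37 with Rhbg, and 0.37 with Znrf3, 0.27 with Slc1a2 and 0.17 with Glul. These are descriptions over 13 libraries that share scaling and groups. Of the 13326 genes compared, those most like Glul included the organic cation transporter Slc22a2 (r = 0.97) and Cog4 (r = 0.97), and those most like Axin2 were Mcm3ap (r = 0.91), Snx19 (r = 0.88) and Stox2 (r = 0.87).

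Among 16 other pericentral genes, 7 fell and 1 rose with miR-Ctrl and 3 fell with anti-miR-873-5p, with medians of -0.89 and -0.43 that were -0.092 and 0.37 under total-count scaling. Of the genes that fell, 2 of 7 and 1 of 3 were called under all 4 scalings, and none of them changed sign. Cyp2e1, the ethanol-oxidising cytochrome P450, fell from 5820 ± 1510 (SD, n = 5) to 666 ± 161 (n = 4) normalized counts in miR-Ctrl BDL and to 1420 ± 240 (n = 4) in anti-miR-873-5p BDL, log2 fold changes of -3.11 (adjusted p = 0.000130) and -2.01 (adjusted p = 0.00231). Between the BDL groups its difference was 1.07 (SE 0.27, adjusted p = 0.757). Gulo, a vitamin C synthesis enzyme, had a log2 fold change of -0.996 under miR-Ctrl (adjusted p = 0.00185) and -0.68 (adjusted p = 0.0671) under anti-miR-873-5p, which turned to 0.15 under total-count scaling. The cytochrome Cyp1a2 varied between mice and was not called, at -1.85 (adjusted p = 0.102) and -2.03 (adjusted p = 0.168). Of 16 periportal genes, 7 fell and 3 rose with miR-Ctrl and 1 fell and 3 rose with anti-miR-873-5p, with the urea cycle enzyme Cps1 at -0.94 (adjusted p = 0.0126) and -0.52 (adjusted p = 0.131). Of the 7 that fell, 1 was called under all 4 scalings and 2 turned positive under total-count scaling, where Cps1 had -0.13 (adjusted p = 0.687) with miR-Ctrl. Falls were not limited to pericentral genes, and whether the zones differed was not tested.

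Upstream of these genes, 6 of 19 Wnt ligands passed the filter in miR-Ctrl BDL against no BDL, of which Wnt4, Wnt5a and Wnt7b rose, and 5 passed it with anti-miR-873-5p, of which Wnt4 and Wnt5a rose. Wnt4 rose by log2 fold changes of 0.71 (adjusted p = 0.0130) and 1.40 (adjusted p = 0.00415). Wnt2, a ligand of the central vein endothelium, had 1.65 ± 0.893 (SD, n = 5) normalized counts in no BDL, 1.05 ± 0.613 (n = 4) in miR-Ctrl BDL and 0.89 ± 0.275 (n = 4) in anti-miR-873-5p BDL and was not called, at -0.58 (adjusted p = 0.450) and -0.84 (adjusted p = 0.196). Wnt9b, another, was below the filter, with means of 0.386 to 0.607. The R-spondin of the central vein, Rspo3, was not called, at -0.41 (adjusted p = 0.470) and -0.22 (adjusted p = 0.689). Signs of Wnt2 and Rspo3 turned positive under total-count scaling. Rspo1 had at most 0.0884 normalized counts in no BDL and 1.01 to 2.01 in miR-Ctrl BDL, where it was called higher (adjusted p = 0.000263), and 0.522 to 2.05 in anti-miR-873-5p BDL.

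Among 10 Wnt receptors and coreceptors tested against no BDL, 2 fell in miR-Ctrl BDL (Fzd8 and Lgr4), and 1 fell (Fzd8) and 1 rose (Fzd1) in anti-miR-873-5p BDL. Neither fall of Fzd8 was called under all 4 scalings. Between the BDL groups Fzd1 had 0.43 (SE 0.155, adjusted p = 0.757). Lgr4, the more widely expressed relative of Lgr5, had a log2 fold change of -0.69 (adjusted p = 0.00749) with miR-Ctrl and -0.63 (adjusted p = 0.0514) with anti-miR-873-5p, both positive under total-count scaling, at 0.13 and 0.19. Of 19 genes of Wnt secretion and β-catenin transduction, 1 fell (Bcl9l) and 2 rose with miR-Ctrl and 1 fell (Bcl9l) and 1 rose with anti-miR-873-5p, with Bcl9l positive under total-count scaling in both. Ctnnb1, which encodes β-catenin, rose with miR-Ctrl beside the Wnt carrier Wls, by 0.34 (SE 0.12, adjusted p = 0.0415), and had 0.23 (adjusted p = 0.314) with anti-miR-873-5p, where Wls alone rose.

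Of 3 secreted Wnt inhibitors tested in miR-Ctrl BDL, Notum fell by 1.02 (log2, SE 0.12, adjusted p = 0.000396) while Dkk3 rose by 2.06 (adjusted p = 0.00526) and Frzb by 2.07 (adjusted p = 0.00207). Under total-count scaling Notum had -0.20 (adjusted p = 0.251) in that comparison. Notum, an enzyme that inactivates Wnt ligands and is itself pericentral in liver, had -0.25 (adjusted p = 0.532) with anti-miR-873-5p, positive under total-count scaling at 0.53. There, 2 of 4 inhibitors were called, again Dkk3 and Frzb, both higher. Of 9 β-catenin target genes known from other tissues, 2 fell and 3 rose with miR-Ctrl and 3 rose with anti-miR-873-5p. The direct target Sp5, a transcription factor, fell from 2.02 ± 0.241 (SD, n = 5) to 0.49 ± 0.304 (n = 4) normalized counts with miR-Ctrl, a log2 fold change of -1.97 (adjusted p = 0.00274), and had -0.94 (adjusted p = 0.170) with anti-miR-873-5p. Tnfrsf19 was the other that fell. Those that rose were Ccnd1 (log2 fold changes 1.71 and 1.49), Sox9 (2.05 and 1.60) and Cd44 (2.55 and 2.15), which biliary, proliferating and immune cells also express. Wnt5a, Wnt7b, Fzd1, Fzd8, Bcl9l, Wls, Sp5, Tnfrsf19 and Cyp7a1 were named after their values were seen.

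No gene of any of these lists was called between the BDL groups in edgeR's test, and DESeq2's Wald test called 2 of the 16 other pericentral genes there, Cyp2e1 at a log2 fold change of 1.06 (adjusted p = 0.0375) and the bile acid synthesis enzyme Cyp7a1 at 1.72 (adjusted p = 0.0141), both higher with anti-miR-873-5p.

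Markers of other cell types differed between BDL and no BDL livers. The summed level of 7 cholangiocyte markers was 57.1 to 140 in no BDL, 428 to 1600 in miR-Ctrl BDL and 221 to 1560 in anti-miR-873-5p BDL, with 5 of 6 tested called higher in both. For 7 macrophage markers the sums were 113 to 658, 723 to 1710 and 458 to 1420, with 6 and 2 called higher, and for 7 stellate cell and fibroblast markers 140 to 218, 204 to 634 and 189 to 778, with 3 and 4 called higher. For 4 neutrophil markers the sums were 0.177 to 7.45, 9.05 to 198 and 7.72 to 45.0, with 3 and 2 called higher, and the others were below the filter. Cftr, S100a8, S100a9 and Mpo had no BDL means of 0.337, 0.722, 1.01 and 0.105 and passed the filter through the BDL mice. The filter thus favoured calls of higher for these low markers. The 5 T cell and natural killer cell markers stayed at sums of at most 3.95. Of 9 markers of liver endothelium, which holds the cells that make the pericentral Wnt ligands, 1 rose with miR-Ctrl and 1 fell with anti-miR-873-5p, and their sums of 99.4 to 146, 58.4 to 185 and 91.6 to 172 overlapped. Of 8 hepatocyte markers, 3 fell and 1 rose with miR-Ctrl and 2 fell with anti-miR-873-5p. Of the falls, 1 of 3 and 1 of 2, both Ttr, were called under all 4 scalings. Under total-count scaling Apoa1 had 0.017 with miR-Ctrl, and Apoh had -0.20 with miR-Ctrl and 0.022 with anti-miR-873-5p. Ttr (transthyretin) was at -2.14 (adjusted p = 0.000212) and -1.67 (adjusted p = 0.00571). Alb (albumin) was at -0.80 (adjusted p = 0.0931) and -0.82 (adjusted p = 0.168), and at 0.002 and -0.031 under total-count scaling. The marker that rose was Trf, at 1.23 (adjusted p = 0.0148) and 0.86 (adjusted p = 0.103). The part of these cell types in the values of the 10 genes was not tested.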

How the data were processed

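Liver RNA of 13 mice was sequenced. Libraries were made by the authors with TruSeq RNA v2, which does not mark strand. Single reads of 50 nt were mapped with TopHat to mm10, and the authors deposited unnormalized counts of reads per Entrez gene, in 3 tables, 1 per comparison. CASAVA 1.8.2, FastQC, Trim Galore and DESeq2 are also named in the submitters' processing notes. The counting program is not given in the sources used here. All columns of values were used. Of 23019 genes listed in both tables with no BDL, 773 had other counts for the same mice, and Glul and Tbx3 were among them. Per-mouse values use the counts of the other tables, except for miR-Ctrl mouse 3, which is in 1 table alone.

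Entrez identifiers were matched to symbols for 23709 of 23785. Genes that passed filterByExpr of edgeR 4.0.16 (R 4.3.3, limma 3.58.1) were scaled by TMM and tested per table with its quasi-likelihood test, at a Benjamini-Hochberg adjusted p of 0.05. SE was derived as |log2 fold change| / √F. Alternatives were other scalings, DESeq2 1.42.0, other filters, 1 fit of all groups, mouse number as a block and leaving out each mouse. The tables, depths of 12185333 to 19689037 counts per mouse and groups follow the labels. Numbers count mice within a group, and p-values measure the spread between mice. The 10 genes, the other lists and the alternatives were chosen with earlier results of these data known. Named genes are the 10, 7 fixed pericentral and Wnt genes and, of each other list, up to 4 with the largest mean. Likeness was Pearson's r on log2(normalized count + 0.5). The 3 most like genes were taken, of which 1 is not reported here. Gene coordinates and sequences are from RefSeq (GRCm38.p6), exon lengths and 50-base windows from GENCODE M21 (GRCm38).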

Additional observations from a re-analysis of the deposited data

How the results depend on the processing

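The number of the 10 genes past the threshold in miR-Ctrl BDL against no BDL was 8, and 4 with total counts, 4 without the 20 top genes in the library size and 4 of 8 in 1 fit of all groups, in which Glul and Tbx3 had no value because their counts differ between tables. DESeq2's Wald test gave 9, and an adjusted p under 0.1 gave 10. Leaving out 1 mouse gave 5 to 7. For anti-miR-873-5p BDL, set against no BDL, it was 4, with 5 by the Wald test, 5 at an adjusted p under 0.1 and 2 to 5 when 1 mouse was left out, and between the BDL groups it was 0 in every fit tried. Total counts turned the log2 fold change of Znrf3 to 0.46, Axin2 to 0.15 and Lect2 to 0.057 in the first comparison, and of Rhbg to 0.00044, Lgr5 to 0.15, Znrf3 to 0.67, Rnf43 to 0.50, Axin2 to 0.32 and Lect2 to 0.17 in the second. Without the 20 top genes Znrf3 was 0.014 in the first, and Znrf3 was 0.20 and Rnf43 0.011 in the second. The libraries of no BDL and BDL differ in composition, and which scaling is nearer to RNA per cell was not tested.

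Between the BDL groups, leaving out 1 mouse gave -0.35 to 0.82 for Glul, -0.30 to 0.40 for Oat, -0.082 to 0.56 for Rhbg, -0.12 to 0.34 for Lgr5, -0.27 to 0.31 for Axin2 and -0.025 to 0.34 for Lect2. Mouse numbers were not treated as pairs in the main fits. Deviations from group means of same-numbered mice had correlations of -0.20 to 0.35. These cannot decide whether mice were paired, because differently numbered mice were not compared. A replicate block gave 7, 3 and 0 genes in the 3 comparisons. The use of all 4 mice with Glul and Tbx3 and of the other tables' counts for miR-Ctrl mice was chosen after seeing the data and gave 0 and 7. Low counts limit Lgr5, Axin2, Znrf3 and Rhbg most.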
